A study of Mus musculus with 4 samples.

Results

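The response of lung cells to 3 hours of mechanical ventilation was examined in male C57BL/6 mice aged 22 months, as the ventilated library set against the nonventilated library of that age. The nonventilated mice were naive controls, whereas the ventilated mice received ketamine, medetomidine and buprenorphine, pure oxygen (an inspired fraction of 100%), a tidal volume of 20 mL/kg, 150 breaths per minute and no end-expiratory pressure (0 cm H2O). They also had an endotracheal tube and lines placed in an artery and a vein, and were given Ringer's lactate through them. The study capped the tidal volume, so mice above the weight at which the cap applied received less than 20 mL/kg of body weight. The mice were on a diet restricted to 70% of free intake. The changes described below therefore belong to ventilation, anesthesia, analgesia, oxygen, instrumentation and fluid together, which cannot be told apart. Each library held the dissociated, frozen and thawed left lobe cells of 3 mice pooled before droplet-based scRNA-Seq, so there was 1 pool a side and no replicate. No difference could be set against the spread between animals, and no test was run.

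A cell was kept if it had 200 to 7500 detected genes and at most 10% mitochondrial counts. It was placed in the immune, endothelial, mesenchymal or epithelial compartment by the presence of Ptprc, Cdh5, Col1a2 or Epcam, respectively. These are the common leukocyte antigen gene, VE-cadherin, a collagen I chain and an epithelial adhesion molecule. Of 9717 cells so placed in the whole series, which also holds young libraries of 2 to 3 months, 4640 came from the aged lungs (2500 nonventilated and 2140 ventilated). In the aged libraries, cells with more than 1 of Ptprc, Cdh5 and Col1a2 were left out (284 nonventilated and 195 ventilated). Cells with none of the 4 genes (241 and 217) were left out too. A cell with Epcam and 1 of the former genes stayed in the compartment of that gene. Only 2 barcodes were shared by the aged libraries, 1 of them a kept cell. Between 97.6% and 99.5% of the cells of a compartment had at least 1 of its own 5 check markers.

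The lung presents a thin epithelium and a dense capillary bed to each breath, and large tidal volumes stretch both. Stretched or oxidant-exposed cells are known to induce stress genes through transcription factors such as NRF2, which drives genes of glutathione synthesis and heme breakdown, and HSF1, which drives chaperones. Activated endothelium displays P-selectin, which slows passing neutrophils, and monocytes and macrophages release chemokines that recruit more of them. Metallothioneins, small zinc-binding proteins, rise with free zinc and with glucocorticoids.

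Unique molecular identifiers (UMIs), each standing for 1 captured transcript, were summed per gene, compartment and library, and given as counts per 1000000 UMIs of that compartment (CPM). A gene is said to have risen or fallen where its CPM changed at least 2-fold and the exact 95% interval of the ratio left out 1. That interval covers counting error only. The log2 ratios have 1 UMI added to each sum. A gene was compared if the 2 libraries averaged at least 50 CPM and 1 of them held at least 20 UMIs. The compartments summed to 14239437 and 14807994 UMIs (immune, nonventilated and ventilated), 8416760 and 7248831 (endothelial), 9206955 and 6549255 (mesenchymal) and 1921002 and 1858755 (epithelial), so the epithelial values are the least precise.

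Among the cells placed, the immune share was 41.7% (95% Clopper-Pearson interval 39.8% to 43.7%) in the nonventilated and 48.3% (46.2% to 50.5%) in the ventilated aged library. The endothelial share was 32.4% (30.6% to 34.3%) and 29.8% (27.9% to 31.8%), respectively. The mesenchymal share was 22.2% (20.6% to 23.9%) and 18.0% (16.4% to 19.7%), and the epithelial share 3.64% (2.94% to 4.45%) and 3.83% (3.06% to 4.73%). Only the immune and mesenchymal intervals did not overlap. These intervals cover counting error only and not the spread between animals, so whether they overlap is no test of ventilation. A share here reflects dissociation and thawing as well as the tissue, and these cannot be told apart.

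**Figure D1:**
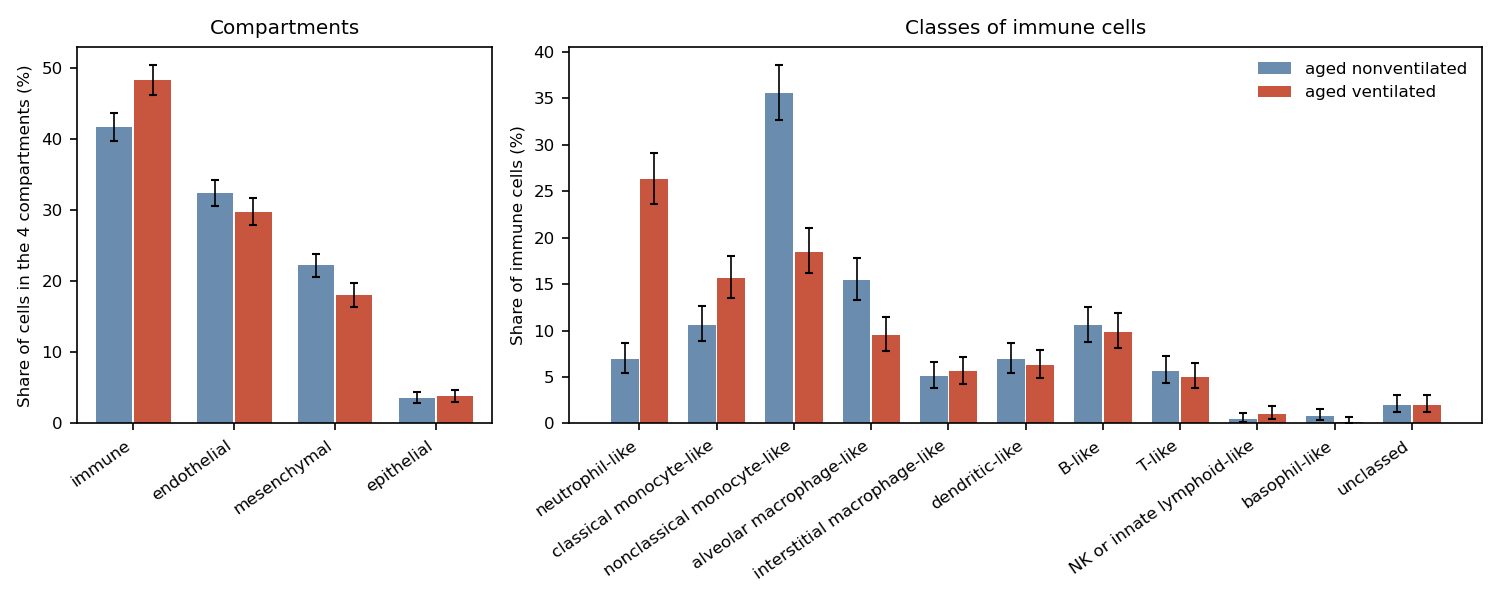
Shares of cells (%) in the aged nonventilated and aged ventilated libraries, for the 4 compartments and for classes of the immune compartment, with 95% Clopper-Pearson intervals that cover counting error only. The neutrophil-like share of immune cells went from 6.90% to 26.3%, and the nonclassical monocyte-like share from 35.6% to 18.5%.

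Neutrophil-like cells made up the largest shift within the aged immune compartment. They were 72 of 1043 immune cells (6.90%, 5.44% to 8.61%) in the nonventilated library and 272 of 1034 (26.3%, 23.6% to 29.1%) in the ventilated one. As they carry few transcripts, their share of the immune UMIs was smaller, at 3.80% and 12.2%. The markers that define the class, which are no separate finding, were higher too, but unevenly. Their ratios ran from 1.93 (G0s2) to 12.3 (S100a8), and the reason for this spread was not tested. S100a9, a calcium-binding alarmin subunit of neutrophils, went from 649 to 6946 CPM, and its partner S100a8 from 505 to 6208 CPM. The transcript of the chemokine receptor Cxcr2 went from 14 to 112 CPM, and that of the growth factor receptor Csf3r from 82.7 to 245 CPM. S100a8 was also seen in cells that should lack it, in 5.56% and 22.9% of endothelial cells with at most 4 and 7 UMIs a cell (the median endothelial cell had 8186.5 and 9052 UMIs). S100a9 was likewise seen in 6.91% and 28.2% of endothelial cells. Free RNA in the droplets can give such values. As 2 marker UMIs sufficed for a class, it may also have added cells to the neutrophil-like class, which was not tested. Classical monocyte-like cells were 10.6% (8.84% to 12.7%) and 15.7% (13.5% to 18.0%) of immune cells. By contrast, nonclassical monocyte-like cells, which patrol the vessel wall, were 35.6% (32.7% to 38.6%) and 18.5% (16.2% to 21.0%), and alveolar macrophage-like cells 15.4% (13.3% to 17.8%) and 9.48% (7.76% to 11.4%). The intervals of the dendritic-like, B-like, T-like and interstitial macrophage-like shares overlapped, which does not show that these shares were unchanged. The monocyte markers that set these classes changed unevenly in the immune cells. Among the nonclassical ones Ace was 5.19-fold lower and Treml4 1.12-fold higher, and among the classical ones Vcan was 7.25-fold higher and Fn1 at a ratio of 0.954. A change in cell numbers and a change of markers within cells cannot be told apart in these shares.

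In the aged immune compartment, 134 of 3738 genes rose (3.58%) and 102 fell (2.73%). With the class shares of UMIs held at those of the nonventilated library, 101 of the rises and 54 of the falls stayed past 2-fold. The median log2 ratio of all genes compared was -0.11 here and between -0.04 and 0.03 in the other compartments, so a gene at 0 in the immune cells stood slightly above the median.

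Saa3, an acute-phase serum amyloid A gene of macrophages and stromal cells (chr7:46711998-46715700), went from 5 UMIs (0.351 CPM) to 32046 UMIs (2164 CPM) in the aged immune cells, a ratio of 6163 (2641 to 18982). In the ventilated library 282 of 1034 immune cells carried it. Most of it was in classical monocyte-like cells, with 1 and 24917 UMIs (0.681 and 8157 CPM). In the ventilated library the 10 genes with the highest fold in this class over the other immune cells were mostly immunoglobulin genes and held none of its 5 markers, though all 5 were detected. A total of 4 of the 162 cells, each with at least 20 immunoglobulin UMIs, held 66178 of the 66327 such UMIs of the class but only 2 of its Saa3 UMIs, and without them Saa3 was at 8492 CPM. Neutrophil-like cells had 0 and 2993 UMIs, nonclassical monocyte-like cells 2 and 2882, interstitial macrophage-like cells 0 and 972, and alveolar macrophage-like cells 0 and 121. Dendritic-like cells had 1 and 26 UMIs (0.679 and 15.6 CPM), close to the 8.83 CPM of the ventilated endothelial cells, of which none had more than 3 UMIs. In the ventilated library its level was thus highest in classical monocyte-like cells, followed by neutrophil-like (1661 CPM), nonclassical monocyte-like (1373 CPM) and interstitial macrophage-like cells (917 CPM), with 48.3 CPM in the alveolar macrophage-like cells.

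The other large rises in the immune cells were also myeloid. Lcn2, which encodes the iron-trapping lipocalin 2, went from 16.7 to 553 CPM (33.1-fold, 29.1 to 37.8), with 6825 of the 8190 ventilated UMIs in neutrophil-like cells. With the class shares held fixed its log2 ratio was 3.59 rather than 5.04. Spic, which encodes a transcription factor of heme-handling macrophages, went from 8.64 to 162 CPM (18.8-fold, 15.6 to 22.7), with 92 and 1373 UMIs in nonclassical and 11 and 771 in classical monocyte-like cells. Cxcl13, a B cell chemokine, went from 4.71 to 130 CPM (27.6-fold, 21.6 to 35.7), but in only 8 and 15 cells, and 1838 of its 1921 ventilated UMIs were in interstitial macrophage-like cells. Mmp8, the neutrophil collagenase, went from 15.6 to 260 CPM (16.7-fold, 14.6 to 19.2). Mmp14, a membrane-bound metalloproteinase, went from 14 to 142 CPM (10.1-fold, 8.75 to 11.8), with 7.50 and 335 CPM in classical monocyte-like cells and 11.5 and 299 in nonclassical ones. Il1f9 (interleukin 36 gamma) and the cystatin gene Cstdc4, both at most 5.34 CPM before, reached 104 and 98.1 CPM. With the class shares fixed, the log2 ratios of Mmp8, Il1f9 and Cstdc4 were 2.75, 2.68 and 3.23 instead of 4.05, 4.26 and 4.89. Ighg2c, an immunoglobulin heavy chain gene, also passed the threshold (log2 ratio 5.53), but 39.8% of its ventilated UMIs were in a single cell.

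Of the 15 cytokine and chemokine genes compared in the aged immune cells, 8 rose and none fell, beside 3.58% of all genes, and their median log2 ratio was 1.11. Il1b, the gene of interleukin-1 beta, went from 915 to 2520 CPM (2.76-fold, 2.70 to 2.81), and that of its antagonist, Il1rn, from 61.6 to 166 CPM (2.70-fold, 2.50 to 2.92). The neutrophil chemokine gene Cxcl2 went from 493 to 1528 CPM (3.1-fold, 3.02 to 3.18). Ccl4 (112 to 536 CPM), Ccl3 (80.4 to 219 CPM), Ccl9 (135 to 292 CPM) and the monocyte chemokine genes Ccl2 (44.7 to 213 CPM) and Ccl7 (17.3 to 84.8 CPM) made up the rest. The classes differed in which of these they carried. Ccl2 in interstitial macrophage-like cells was at 194 and 1601 CPM and in classical monocyte-like cells at 38.2 and 325 CPM, whereas alveolar macrophage-like cells had 96.5 and 92.1 CPM. Likewise Cxcl2 in alveolar macrophage-like cells was at 718 and 805 CPM and Il1b at 267 and 230 CPM, so the macrophages of the airspace showed no 2-fold rise of any of the 3.

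Genes of the NRF2 and heme response formed the second immune group. Of 18 compared, 6 rose and none fell, with a median log2 ratio of 0.68. Hmox1, which encodes heme oxygenase 1, went from 70.6 to 678 CPM (9.59-fold, 8.99 to 10.2), from 84.7 to 1712 CPM in nonclassical monocyte-like and from 51.8 to 1254 CPM in classical monocyte-like cells. In alveolar macrophage-like cells it was at 139 and 461 CPM. Slc7a11, the cystine importer gene that feeds glutathione synthesis, went from 150 to 1019 CPM (6.78-fold, 6.48 to 7.10), with 8694 of the 15086 ventilated UMIs in neutrophil-like cells. Fth1, which encodes the ferritin heavy chain, reached 15665 CPM from 5368 CPM (2.92-fold, 2.89 to 2.94), and within nonclassical monocyte-like cells it went from 3549 to 29474 CPM. Sod2 (146 to 750 CPM), the export pump gene Abcc1 (48.3 to 130 CPM) and the glutathione synthesis gene Gclm (32.9 to 81.9 CPM) were the others. Of 7 interferon-induced genes compared, 3 rose and none fell (Cxcl10 at 12.8 and 137 CPM, Isg15 at 21.7 and 163 CPM, and Oasl2 at 20.0 and 84.8 CPM). Over all immune genes 3.58% rose and 2.73% fell.

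The largest falls in the immune cells were airway secretory and immunoglobulin genes held by a handful of cells. Scgb1a1, the club cell secretory gene, was at 7060 and 195 CPM, yet its highest cell alone held 65599 of the 100537 nonventilated UMIs. Without the 5 highest cells per gene in each library, its log2 ratio was -0.74 instead of -5.18, and those of Scgb3a2, Cyp2f2 and Igha were -0.92, -1.15 and -0.52. Falls spread over many cells were smaller. Flt1, a VEGF receptor gene also carried by nonclassical monocytes, was at 205 and 72.9 CPM, Zbtb16 at 132 and 48.3 CPM, the immediate early gene Fosb at 319 and 136 CPM, and Axl, a receptor for dying-cell ligands, at 160 and 72.1 CPM. Of these, only Fosb stayed past 2-fold with the class shares fixed (-1.27).

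**Figure D2:**
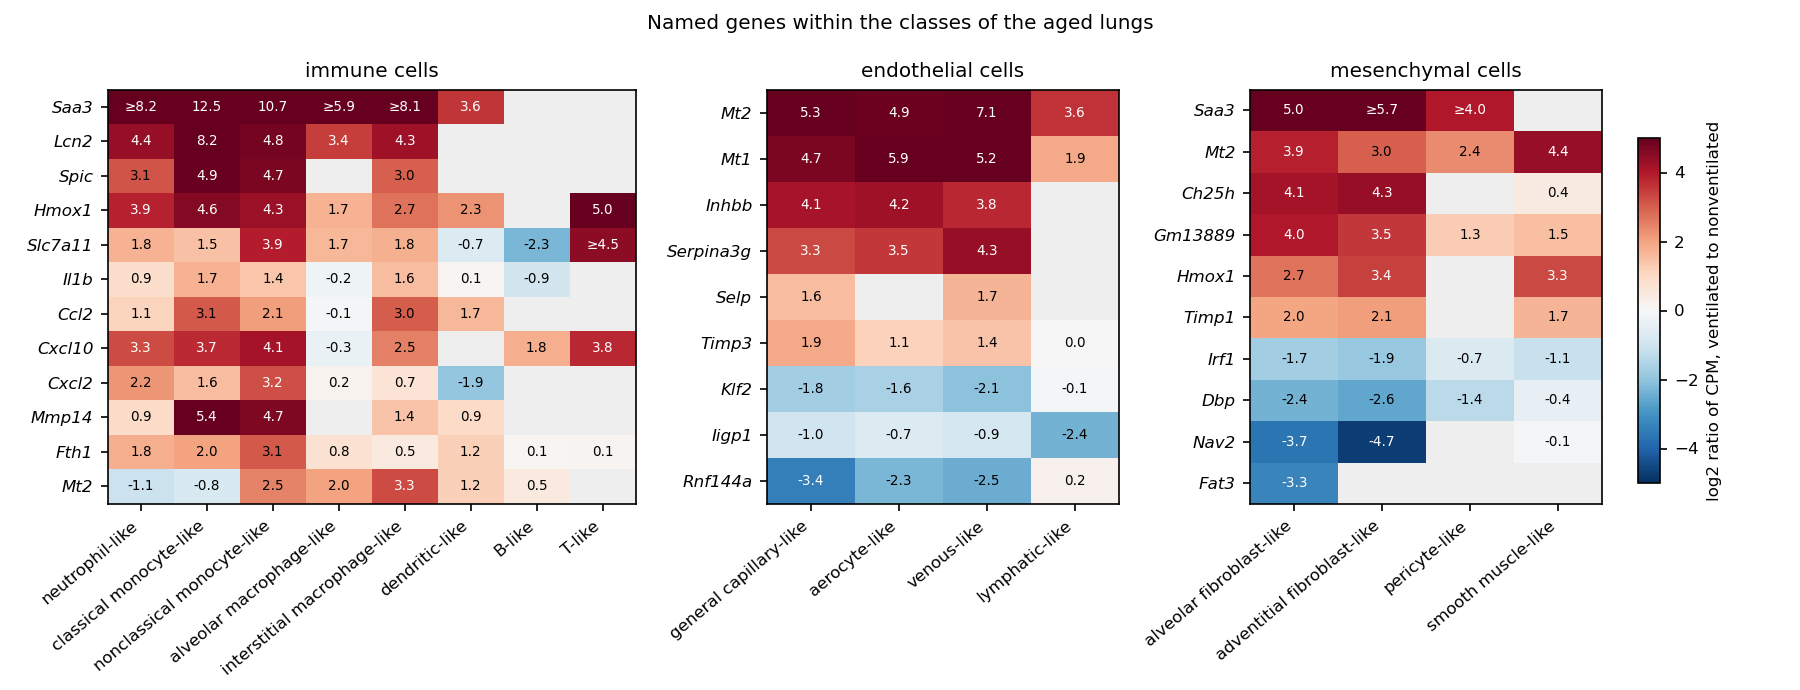
Log2 ratio of CPM, ventilated to nonventilated aged library, for named genes (rows) within classes of at least 15 cells (columns) of the immune, endothelial and mesenchymal compartments. Grey cells had under 20 UMIs in both libraries, and a sign of at least or at most marks a bound set by a floor of 3 UMIs where a library had 0. Saa3 was at 12.5 in classical monocyte-like cells, where the nonventilated count was under that floor, so it is not ranked against the bounds of other classes. Klf2 and Rnf144a were lower in the general capillary-like, aerocyte-like and venous-like cells but not in the lymphatic-like cells (-0.11 and 0.20).

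In the aged endothelial compartment, 148 of 3707 genes rose (3.99%) and 206 fell (5.56%), and here the class mix mattered little: 143 and 192 stayed past 2-fold with the class shares fixed. The metallothionein genes led. Mt2 went from 17.9 to 742 CPM (41.4-fold, 35.2 to 49.0) and from 48 of 810 to 390 of 638 cells. Mt1 went from 73.7 to 1775 CPM (24.1-fold, 22.2 to 26.2). Both were higher in the general capillary-like, aerocyte-like, venous-like and lymphatic-like cells, with log2 ratios of Mt2 between 3.61 and 7.14. Hbb-bs and Scgb1a1 were again a matter of single cells, which held 98.0% and 94.5% of their ventilated UMIs.

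Mt1 (chr8:94179082-94180327) and its neighbor Mt2 (chr8:94172664-94173568) were also among the largest rises of the mesenchymal cells, so the 150 bases before the RefSeq start of each are shown, both on the plus strand of GRCm38.p6. Capitals mark the metal response element letters TGCACNC or TGCGCNC on either strand, a set added after the values were seen. Of 32851 such promoter windows in RefSeq, 6.12% held the first and 9.17% the second.
Mt1 (chr8:94178939-94179088): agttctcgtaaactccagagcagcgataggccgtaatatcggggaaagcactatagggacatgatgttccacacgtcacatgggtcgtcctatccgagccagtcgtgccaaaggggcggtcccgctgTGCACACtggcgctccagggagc
Mt2 (chr8:94172468-94172617): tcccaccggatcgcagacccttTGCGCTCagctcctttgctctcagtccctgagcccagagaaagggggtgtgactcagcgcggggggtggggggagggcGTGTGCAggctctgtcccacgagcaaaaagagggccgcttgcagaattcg
Each window held a TGCACNC match, 23 bases before the start in Mt1 and 50 bases in Mt2, and Mt2 also a TGCGCNC match at 128 bases. A match in these letters is a description and not a measured site.

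Genes that endothelium is known to use in leukocyte capture and in fibrinolysis were among the endothelial rises. Selp, the gene of P-selectin, went from 131 to 557 CPM (4.26-fold, 3.98 to 4.56), and 3512 of the 4035 ventilated UMIs were in venous-like cells, where it was at 1142 and 3762 CPM. Vcam1, an adhesion molecule for monocytes and lymphocytes, went from 117 to 310 CPM (2.65-fold, 2.45 to 2.86), though its log2 ratio was 0.99 with the class shares fixed. Of 7 leukocyte adhesion genes compared, these 2 rose and none fell, beside 3.99% and 5.56% of all endothelial genes. Plat, the gene of tissue plasminogen activator, went from 108 to 361 CPM (3.36-fold, 3.11 to 3.62). Serpina3n, a protease inhibitor gene, was at 6.30 and 153 CPM (24.2-fold, 18.4 to 32.6), and Inhbb, an activin subunit gene, at 16.4 and 197 CPM (12-fold, 10.1 to 14.4). The rises also took in the gene of the EGFR ligand Hbegf (93.6 to 319 CPM) and the metalloproteinase inhibitor gene Timp3, which reached 5564 CPM from 1765 CPM. The basement membrane genes Col4a1 (549 to 1221 CPM) and Col4a2 (345 to 812 CPM), the glucocorticoid-induced Fkbp5 (75.8 to 241 CPM) and the small heat shock gene Hspb1 (164 to 639 CPM) rose as well. S1pr1, a barrier-supporting lipid receptor gene, went from 597 to 1328 CPM (2.23-fold, 2.15 to 2.30).

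Transcription factor and receptor genes of the vessel wall were among the falls. Klf2, a transcription factor gene induced by laminar flow (chr8:72319033-72321656), went from 1119 to 371 CPM, 3.01-fold lower (2.89 to 3.15). Its relative Klf4 was at 987 and 431 CPM. Tek, the TIE2 receptor gene, was at 575 and 250 CPM, Ptprb, a phosphatase gene of the same pathway, at 2039 and 863 CPM, Calcrl, the adrenomedullin receptor gene, at 2299 and 1053 CPM, and Nrp1, a VEGF co-receptor gene, at 580 and 286 CPM. The last 4 and Klf4 were each between 2.03-fold and 2.36-fold lower. Nrp1 lay at the limit, called under only 3 of 8 alternative settings, with a log2 ratio of -0.79 in cells thinned to equal depth. In the vascular signalling list as a whole, 3 of 19 genes rose and 3 fell, with a median log2 ratio of -0.53 beside -0.04 over all genes. Among 14 endothelial junction genes none rose and 2 fell (Ptprb and Ptprm), with a median of -0.29. Over all endothelial genes 3.99% rose and 5.56% fell, so 2 calls among 14 genes cannot be read as a trait of that list. In the young lungs 1 of the 14 rose and 2 fell, with a median of -0.36. The largest falls were Rnf144a, which encodes a ubiquitin ligase (368 to 39.7 CPM, 9.27-fold lower, 8.21 to 10.5), Antxr1 (143 to 23.0 CPM), Specc1 (173 to 28.0 CPM), the GLP-1 receptor gene Glp1r (272 to 44.1 CPM) and Nxpe4 (93.6 to 15.5 CPM). The lymphatic-like cells did not share the fall of Rnf144a, with 64.9 and 75.1 CPM from 18 and 20 UMIs. Cxcl12 was at 493 and 183 CPM, and elastin (Eln) at 111 and 22.5 CPM.

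None of the 20 interferon-induced genes compared rose in the aged endothelial cells, and 2 fell. These were Irf1, a transcription factor gene (923 and 444 CPM), and Iigp1, a GTPase gene (895 and 422 CPM). The median of the list was 0.17. None of 10 NRF2 genes rose or fell (median 0.36), and of 11 heat shock genes only Hspb1 did. Over all endothelial genes 3.99% rose and 5.56% fell, so no rise in lists this short is near that share.

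**Figure D3:**
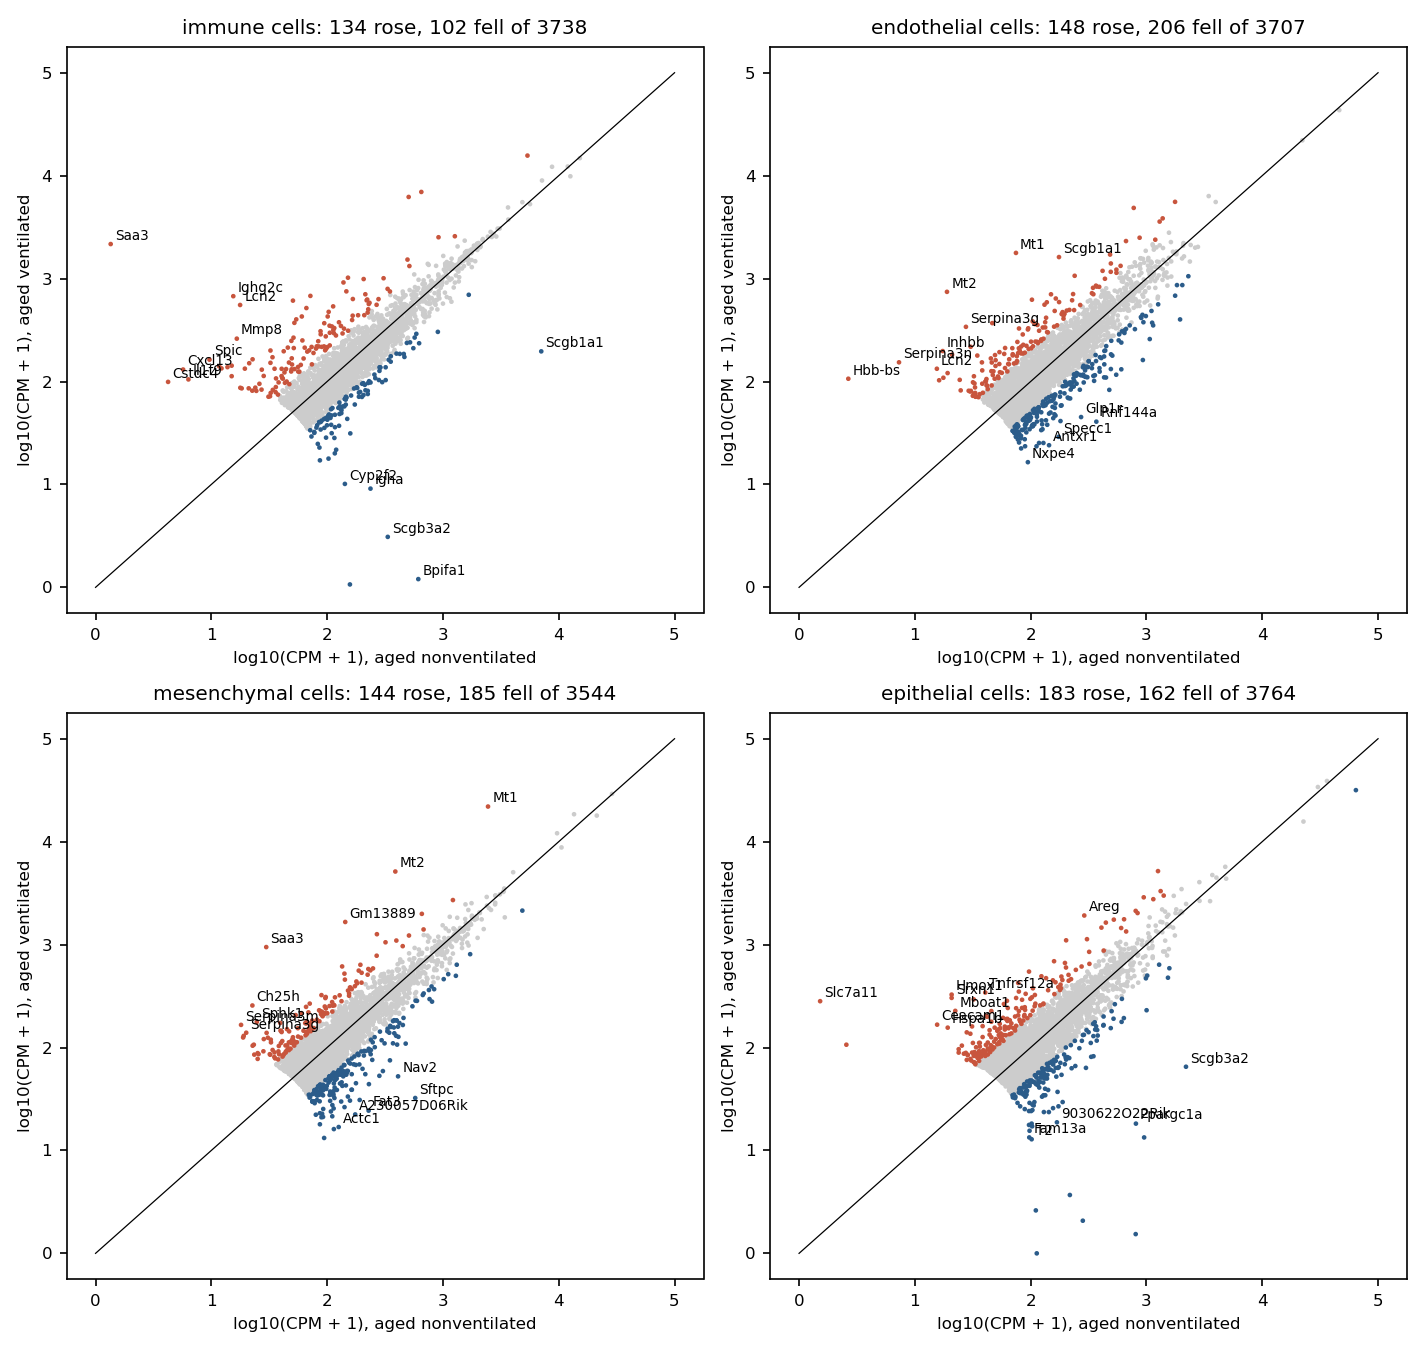
Log10 of CPM plus 1 of each gene compared in the aged nonventilated (x axis) and aged ventilated (y axis) library, 1 panel per compartment, with genes that rose in red, genes that fell in blue, the others in grey and equal values on the line. The named points are the largest rises and falls among genes seen in at least 10 cells of a library, with Saa3 at 0.351 and 2164 CPM in immune cells and Mt1 at 2449 and 21936 CPM in mesenchymal cells.

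In the aged mesenchymal compartment, 144 of 3544 genes rose (4.06%) and 185 fell (5.22%), of which 143 and 180 stayed past 2-fold with the class shares fixed. Metallothioneins again took a large share of the transcripts. Mt1 went from 2449 to 21936 CPM (8.96-fold, 8.83 to 9.08) and was seen in 383 of 386 ventilated cells, and Mt2 from 387 to 5127 CPM (13.3-fold, 12.8 to 13.7). They were higher in alveolar fibroblast-like, adventitial fibroblast-like, pericyte-like and smooth muscle-like cells, with log2 ratios of Mt1 from 1.69 to 3.69. A total of 5 of the 13 glucocorticoid and metal response genes rose and none fell, with a median log2 ratio of 0.65: the other 3 were Fkbp5 (96.2 to 309 CPM), the lipase inhibitor gene Angptl4 (88.3 to 322 CPM) and the kinase gene Sgk1 (94.4 to 249 CPM).

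Saa3 was at 28.8 and 945 CPM in the mesenchymal cells (32.8-fold, 29.0 to 37.3), with 5993 of 6187 ventilated UMIs in alveolar fibroblast-like cells, but it was seen in only 90 of 386 cells. Ch25h, which makes the oxysterol 25-hydroxycholesterol, went from 21.6 to 255 CPM (11.8-fold, 10.2 to 13.7) and Sphk1, which makes sphingosine-1-phosphate, from 23.7 to 176 CPM (7.44-fold, 6.43 to 8.63). In smooth muscle-like cells Ch25h was at 86.7 and 118 CPM. Of 16 matrix remodelling genes, 7 rose and none fell, with a median log2 ratio of 0.53. Among them were Lcn2, the metalloproteinase inhibitor gene Timp1 (69.7 to 266 CPM), Mmp3 (109 to 275 CPM), the hyaluronan synthase Has1 (87.5 to 210 CPM), tenascin C (Tnc, 61.5 to 145 CPM, with a log2 ratio of 0.43 rather than 1.23 under the cell filter of the study) and Thbs1 (1218 to 2706 CPM). Of the 7 rises, 3 were still called under the cell filter of the study and 4 in cells thinned to equal depth. Over the 15 members also compared in the young lungs, the aged median was 0.095. Of 23 structural matrix genes, by contrast, 3 rose and 2 fell, with a median of -0.14, beside 4.06% and 5.22% of all genes of this compartment. The basement membrane genes Col4a1 (267 to 779 CPM) and Col4a2 (162 to 368 CPM) and the crosslinking enzyme gene Lox (141 to 455 CPM) were the rises, and Npnt (1315 and 636 CPM) and Fbln5 (95.6 and 47.2 CPM) were the falls.

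The unfolded protein response was represented in the mesenchymal cells by 3 rises among 11 genes (median 0.55), namely the chaperone gene Hspa5 (679 to 1402 CPM), the transcription factor gene Xbp1 (186 to 558 CPM) and Manf (158 to 380 CPM). Of 13 NRF2 genes 4 rose and none fell, beside 4.06% and 5.22% of all genes of this compartment. Hmox1 was at 18.0 and 129 CPM (7.14-fold, 6.04 to 8.48), Gclc at 96.4 and 238 CPM, Sod2 at 235 and 561 CPM, and Gclm at 45.3 and 96.7 CPM. Of 11 clock genes, 4 fell and 1 rose (median -0.46). Dbp, an output gene of the clock, was at 161 and 37.9 CPM, 4.26-fold lower (3.72 to 4.89), and its relatives Hlf (102 and 49.0 CPM) and Tef (86.1 and 42.8 CPM) fell as well, as did Rora (765 and 294 CPM), whereas their antagonist Nfil3 rose (40.9 to 83.7 CPM).

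None of 5 cytokine and chemokine genes and none of 5 interferon-induced genes rose in the aged mesenchymal cells, and Irf1 (411 and 126 CPM, 3.27-fold lower, 3.03 to 3.53) and Cxcl10 (120 and 37.7 CPM, 3.19-fold lower, 2.78 to 3.68) fell. Over all genes of this compartment 4.06% rose, so no rise among 5 genes is near that share. Cxcl10 was at 91.9 and 47.4 CPM in alveolar fibroblast-like, 288 and 17.9 CPM in adventitial fibroblast-like and 196 and 3.03 CPM in smooth muscle-like cells, the last from 149 and 2 UMIs. Of 13 NF-kB feedback genes, 1 rose (Tnfaip2, 154 to 335 CPM), with a median of -0.04. Besides Sftpc, given below, the largest falls were the giant cadherin gene Fat3 (227 to 23.4 CPM, 9.72-fold lower, 8.25 to 11.5), Nav2, a cytoskeletal regulator gene (409 to 51.5 CPM, 7.94-fold lower, 7.10 to 8.90), and A230057D06Rik (174 to 21.4 CPM). Nav2 was at 505 and 39.5 CPM in alveolar fibroblast-like cells but at 192 and 181 CPM in smooth muscle-like cells. Sftpc, an alveolar type II gene, was at 575 and 31.3 CPM, but its log2 ratio of -4.19 became -0.11 without the 5 highest cells in each library.

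**Figure D4:**
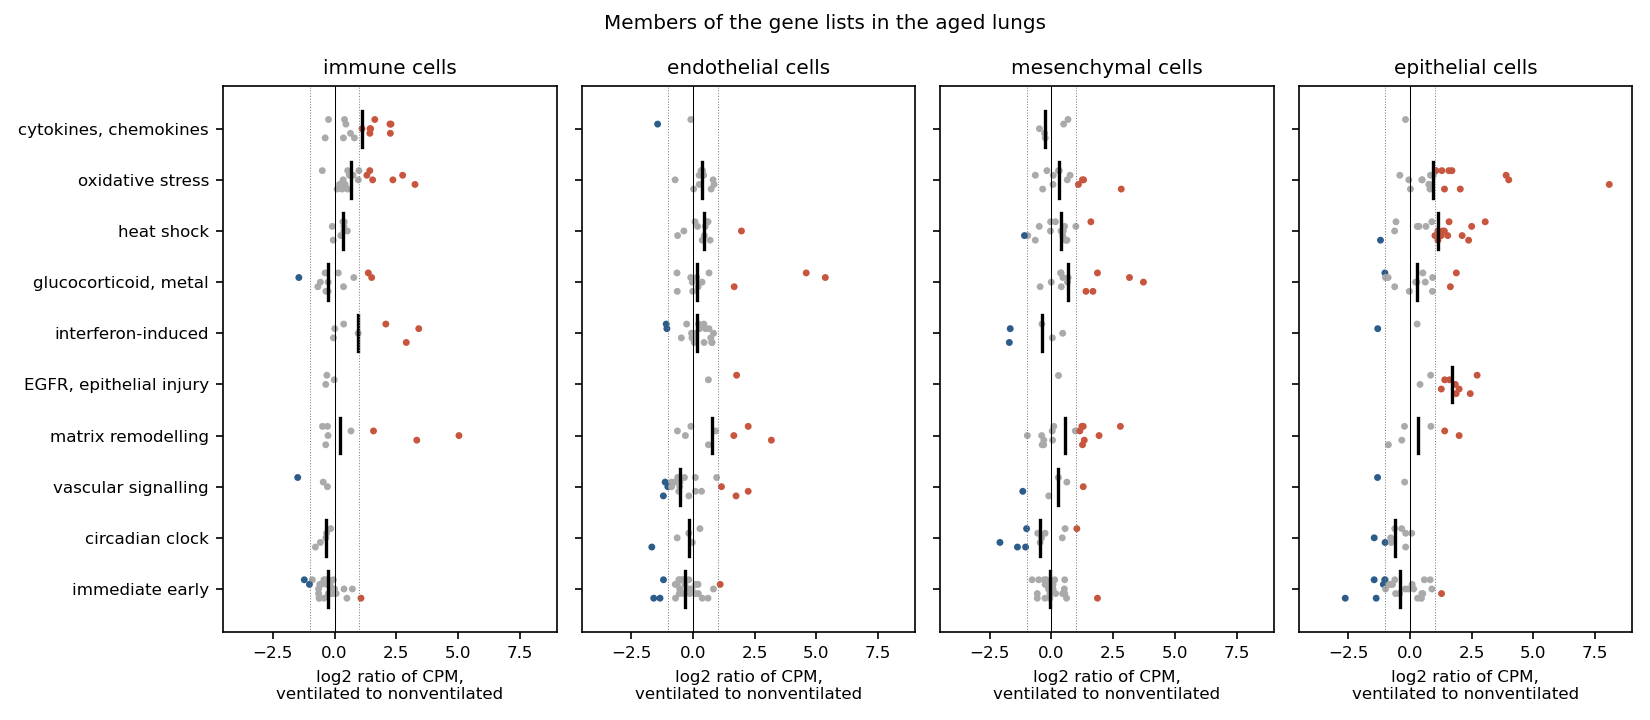
Log2 ratio of CPM, ventilated to nonventilated aged library, of each compared member of 10 gene lists by compartment (points, red for rose and blue for fell), with the median of the list (black bar) and the 2-fold limits (dotted lines). Oxidative stress is the NRF2 list, and the heat shock members of the epithelial cells have a median of 1.14, against medians of 0.34 to 0.46 in the other compartments.

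The aged epithelial compartment held 91 and 82 cells, among them 21 and 19 alveolar type II-like, 39 and 28 alveolar type I-like, 23 and 23 ciliated-like and 8 and 8 secretory airway-like cells. The 10 genes with the highest fold in the secretory airway-like class over the other epithelial cells held 3 of its 4 markers in the nonventilated library. In the ventilated library they held 1, along with the basal marker Krt15. Whether the secretory airway-like cells of the libraries were of the same kind was not tested, so values within this class may compare unlike cells. Of 3764 genes, 183 rose (4.86%) and 162 fell (4.3%). Without the 5 highest cells per gene in each library, 150 of the rises and 139 of the falls were still called. Under the cell filter of the study, which leaves out the cells with the most genes and UMIs, 65 of the rises and 57 of the falls were called. Its limit of 21021 UMIs a cell lay below the median of the ciliated-like cells (25759 and 31131 UMIs, nonventilated and ventilated). It also lay below that of the secretory airway-like cells (33568 and 34543 UMIs), so values under this filter come from a different set of cells.

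NRF2 genes formed 1 of 3 groups among the epithelial rises, which are given here in no order of size. Slc7a11 was at 1 UMI (0.521 CPM) and 522 UMIs (281 CPM), a ratio of 539 (96.4 to 21349). It was found in 7 of 8 secretory airway-like cells (374 UMIs) and 17 of 23 ciliated-like cells (127 UMIs) of the ventilated library, and in 4 of 19 alveolar type II-like cells with 8 UMIs. Srxn1, which encodes sulfiredoxin, a repair enzyme of oxidized peroxiredoxins, went from 19.8 to 302 CPM (15.3-fold, 11 to 21.8), with 3 and 388 UMIs in secretory airway-like and 20 and 108 in ciliated-like cells. Gclc, the catalytic subunit of glutathione synthesis, went from 1257 to 5173 CPM (4.12-fold, 3.94 to 4.30). It was spread more evenly, at 1826 and 3411 CPM in alveolar type II-like, 68.5 and 740 CPM in alveolar type I-like and 2215 and 6988 CPM in ciliated-like cells. Gclm, its regulatory subunit, went from 108 to 323 CPM (3.00-fold, 2.55 to 3.53). In all, 10 of 21 NRF2 genes rose, beside 4.86% of all genes, and none fell, with a median log2 ratio of 0.95. Of the 10, 8 were still called under the cell filter of the study, and 4 in cells thinned to 1000 UMIs, a setting that also left 6 of the 12 heat shock rises of these cells. Thinning left only 836 epithelial genes to compare, and a gene not compared there counts as not called, whatever its ratio. Hmox1 was among the 10 (19.8 and 325 CPM), but a single cell held 488 of its 605 ventilated UMIs, and its log2 ratio of 4.01 was 1.78 without the 5 highest cells.

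The promoters of 3 of these genes and of Areg, an EGFR ligand gene, are shown because each held the letters of an element tied to its known regulation. Windows are the 150 bases before the RefSeq start in GRCm38.p6, given 5′ to 3′ on the strand of the gene. Capitals mark, on either strand, TGATGNAA (the amino acid response element) in Slc7a11, TGANTCA (the AP-1 element, which the antioxidant element TGACNNNGC can overlap) in Srxn1, TGACNNNGC in Gclm and TGACGTCA (the cAMP response element) in Areg.
Slc7a11 (chr3:50443614-50443763, minus strand): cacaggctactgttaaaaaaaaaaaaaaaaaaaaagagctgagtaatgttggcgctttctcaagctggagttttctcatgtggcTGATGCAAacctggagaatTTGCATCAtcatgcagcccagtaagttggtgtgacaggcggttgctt
Srxn1 (chr2:152105374-152105523, plus strand): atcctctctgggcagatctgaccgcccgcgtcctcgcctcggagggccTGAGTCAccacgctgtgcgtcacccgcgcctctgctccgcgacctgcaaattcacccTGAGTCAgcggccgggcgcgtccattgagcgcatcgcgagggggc
Gclm (chr3:122245407-122245556, plus strand): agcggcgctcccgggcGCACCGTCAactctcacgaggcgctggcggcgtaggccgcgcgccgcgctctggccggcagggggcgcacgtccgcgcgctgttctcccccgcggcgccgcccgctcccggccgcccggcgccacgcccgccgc
Areg (chr5:91139449-91139598, plus strand): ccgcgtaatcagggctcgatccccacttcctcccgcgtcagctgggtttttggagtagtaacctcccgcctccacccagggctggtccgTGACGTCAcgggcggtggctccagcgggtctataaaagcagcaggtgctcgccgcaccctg
Slc7a11 held 2 matches, 66 and 47 bases before the start, and Srxn1 2 matches at 102 and 45 bases, while Gclm and Areg held 1 each, at 134 and 61 bases. These elements were present in 2.23% (TGATGNAA), 4.24% (TGANTCA), 6.80% (TGACNNNGC) and 1.36% (TGACGTCA) of the 32851 windows of all promoters. Of the 10 NRF2 genes that rose, 7 had a promoter in the RefSeq table and 2 of those held TGACNNNGC. The matches are descriptions of these windows only.

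Chaperones were the second epithelial group, with 12 rises and 1 fall among 19 heat shock genes (median 1.14), beside 4.86% and 4.3% of all epithelial genes. Hspe1, the mitochondrial co-chaperonin gene, went from 95.8 to 546 CPM (5.70-fold, 4.86 to 6.70) and its partner Hspd1 from 102 to 306 CPM (3.02-fold, 2.56 to 3.57). Of the ventilated Hspe1 UMIs, 458 were in 23 ciliated-like and 434 in 8 secretory airway-like cells. The inducible HSP70 genes Hspa1b (18.2 and 155 CPM) and Hspa1a (30.2 and 159 CPM) rested on fewer cells, since 239 of the 288 ventilated Hspa1b UMIs lay in 6 secretory airway-like cells. The constitutive Hspa8 (806 to 2124 CPM), Hsp90aa1 (1325 to 3305 CPM) and Hsp90ab1 (1145 to 2759 CPM) were abundant and seen in nearly every cell. Dnajb1 was the exception, at 194 and 84.5 CPM. Of the 12 rises, 8 were still called under the cell filter of the study, where the log2 ratios of Hspe1, Hsp90ab1, Hsph1 and Dnaja1 were 0.96, 0.90, 0.74 and 0.68 instead of 2.50, 1.27, 1.14 and 1.02. Of the 12 rising genes, 9 had a RefSeq promoter and 3 of those held the heat shock element letters TTCNNGAA, which 4.21% of all windows held.

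Genes of EGFR signalling and epithelial injury were the third group, with 8 of 10 rising and none falling (median 1.72). Areg, which encodes the EGFR ligand amphiregulin, went from 289 to 1915 CPM (6.62-fold, 6.05 to 7.25). Ciliated-like cells held 306 and 3112 of its UMIs and secretory airway-like cells 12 and 278, whereas alveolar type II-like cells held 226 and 169. Under the cell filter of the study its log2 ratio was -0.08 instead of 2.72. Sfn (201 to 1099 CPM), the urokinase receptor gene Plaur (123 to 491 CPM), the keratin genes Krt19 (445 to 1634 CPM), Krt8 (946 to 2877 CPM) and Krt18 (837 to 2024 CPM), the lectin gene Lgals3 (408 to 1461 CPM) and Hbegf (319 to 849 CPM) were the others. Under the cell filter of the study only 2 of these 8 genes (Sfn and Hbegf) were still called, as Plaur was at a log2 ratio of 3.37 without meeting the rule, and Krt19 was at a log2 ratio of 0.99, Krt8 at 0.81, Lgals3 at 0.62 and Krt18 at 0.29. Without that filter Krt8 was higher in alveolar type II-like (211 and 795 CPM), alveolar type I-like (507 and 1067 CPM) and ciliated-like cells (2046 and 5672 CPM). The cell cycle inhibitor gene Cdkn1a (89.5 to 331 CPM) and the clotting initiator gene F3 (306 to 1128 CPM) also rose. None of the 14 surfactant and lamellar body genes (median 0.14) and none of the 11 barrier and transport genes (median 0.19) rose or fell. Over all epithelial genes 4.86% rose and 4.3% fell, so no call in lists this short is near that share.

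By ratio, the airway secretory genes Scgb3a1 (954 and 12.4 CPM) and Bpifa1 (806 and 0.538 CPM) fell furthest in the epithelial cells. Bpifa1 was seen in only 4.40% of the nonventilated epithelial cells. Among genes seen in at least 10 cells of the nonventilated library, the largest epithelial fall was that of Ppargc1a, a coactivator gene of mitochondrial biogenesis. It was at 810 and 17.2 CPM, 47.0-fold lower (33.2 to 69.0). Nearly all of it was in ciliated-like cells, with 1536 UMIs in 19 of 23 cells of the nonventilated library and 5 UMIs in 4 of 23 cells of the ventilated one. Alveolar type II-like cells had 8 and 26 UMIs. Of 27 immediate early genes, 5 fell and 1 rose (median -0.42), beside 4.3% and 4.86% of all epithelial genes. The falls included Egr2 (102 and 16.1 CPM), Egr3 (171 and 62.4 CPM) and Nr4a1 (425 and 165 CPM). Of other genes, Irf1 (132 and 53.3 CPM) and Rora (174 and 63.5 CPM) fell too. Mt1 went the other way from the remaining compartments, at 1286 and 637 CPM. Its ciliated-like cells had 2249 and 501 UMIs, but its alveolar type II-like cells 97 and 258 and its alveolar type I-like cells 1 and 28, and under the cell filter of the study the log2 ratio was 1.61 instead of -1.01. Scgb3a2 was at 2194 and 64.0 CPM, yet its log2 ratio of -5.09 became 0.70 without the 5 highest cells.

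Across the aged compartments, 1878 genes were compared in all 4. Lcn2 (chr2:32384633-32388252) alone rose in all 4, at 14.5 and 132 CPM in endothelial cells, 17.8 and 124 CPM in mesenchymal cells and 183 and 488 CPM in epithelial cells besides the immune values above. A single cell held 333 of its 907 ventilated epithelial UMIs, and its epithelial log2 ratio of 1.45 was 0.91 under the cell filter of the study, 0.79 with a mitochondrial limit of 5% and 0.95 in cells thinned to equal depth. Its endothelial transcripts were highest in lymphatic-like cells (223 and 1746 CPM). In the endothelial cells it was seen in 102 of 638 ventilated cells, the highest with 105 UMIs, while S100a8 was at 6.53 and 28.0 CPM there and in no cell above 7 UMIs. Smarca2, an ATPase gene of the SWI/SNF chromatin remodellers (chr19:26605050-26778322), alone fell in all 4, and by a like amount: 140 and 66.7 CPM in immune, 646 and 312 CPM in endothelial, 162 and 77.1 CPM in mesenchymal and 92.1 and 45.7 CPM in epithelial cells. In the epithelial cells the 2.01-fold fall (1.55 to 2.64) rested on 177 and 85 UMIs, and its log2 ratio was -0.43 under the cell filter of the study. With the class shares fixed, the immune value was -0.99 and the epithelial -0.79. A further 15 genes rose in 3 compartments, among them Hmox1, Gclm, Hspb1, Fkbp5, Mt1 and Mt2, the oxygen-sensing factor gene Hif1a, the nucleolar genes Gnl3 and Ddx21, and Tnfrsf12a, the TWEAK receptor gene. Those that fell in 3 numbered 8 and included Rora, Irf1 and Cavin2. Another 15 genes rose in a compartment and fell in another, Hspa1a among them (183 and 85.8 CPM in mesenchymal cells, against its rise in epithelial cells). None of the 80 to 82 ribosomal protein genes compared in a compartment rose or fell, and neither did the 6 immune, 5 endothelial and 4 epithelial MHC class II genes compared. Over all genes 2.73% to 5.56% rose or fell, by compartment and direction, so no call among so few MHC class II genes is near that share.

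**Figure D5:**
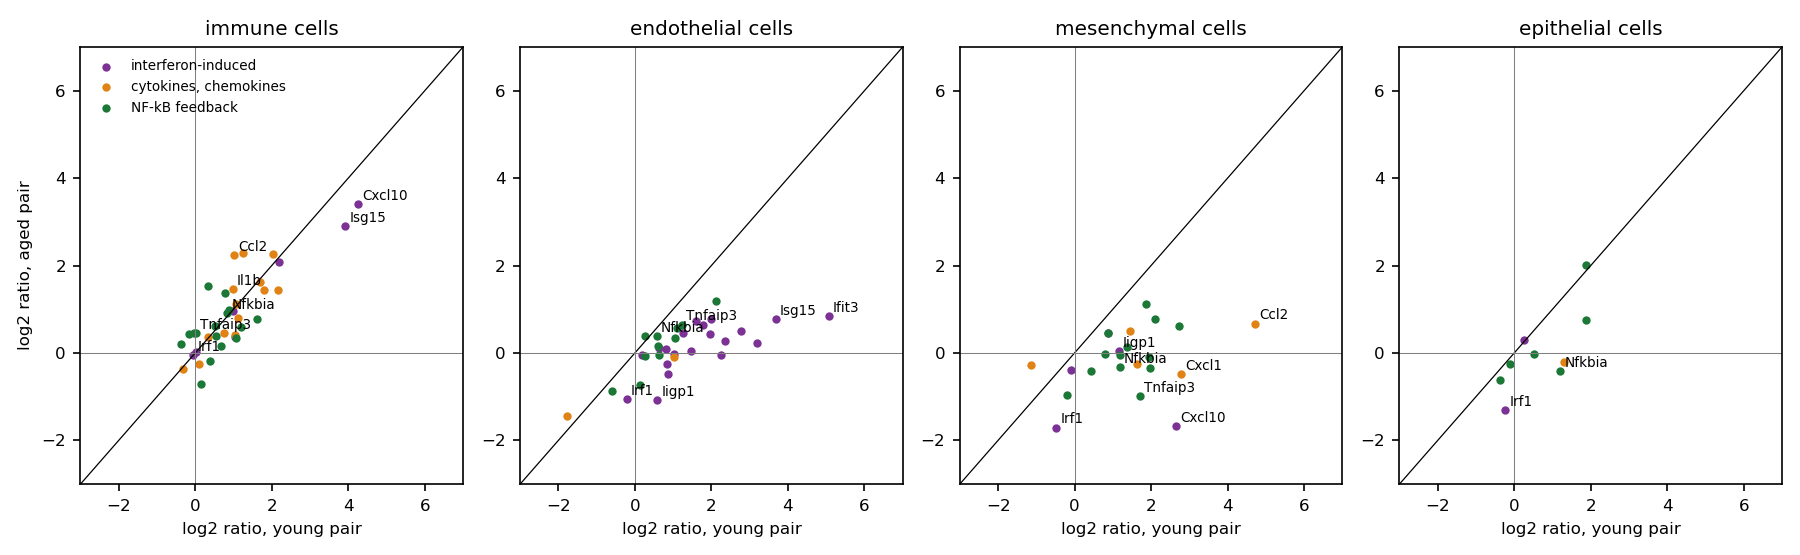
Log2 ratio of CPM, ventilated to nonventilated, in the young (x axis) and aged (y axis) pair of libraries for members of the interferon-induced, cytokine and chemokine and NF-kB feedback lists that were compared at both ages, 1 panel per compartment, with equal values on the line. In mesenchymal cells Cxcl10 lies at 2.66 in the young and -1.67 in the aged lungs, and in immune cells at 4.26 and 3.41.

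The young pair of libraries, which shares no sample with the aged pair, shows where the aged values stood apart. In the young lungs, 5.03% of immune genes rose and 4.63% fell, 9.32% and 9.21% of endothelial genes, 9.52% and 8.72% of mesenchymal genes, and 8.7% and 6.62% of epithelial genes, by the same rule. Of the 134 genes that rose in the aged immune cells, 122 were compared in the young ones and 97 rose there too. The same held for 111 of 136 endothelial, 117 of 136 mesenchymal and 117 of 153 epithelial rises. Of the falls, 48 of 91 immune, 157 of 194 endothelial, 135 of 168 mesenchymal and 85 of 128 epithelial genes also fell in the young lungs. Between 0 and 1 gene per set was called in the opposite direction. The other way is counted over all young calls, whether or not the gene was compared in the aged lungs. As the young pair had more calls in every set, the shared part is smaller by that alone. Of all young rises, 51.3% of immune, 31.9% of endothelial, 34.2% of mesenchymal and 38.2% of epithelial ones were also called in the aged lungs. Of the young falls it was 27.6%, 45.6%, 43.1% and 36.5%, respectively. Saa3 had log2 ratios of 12.33 (aged) and 12.15 (young) in the immune cells, and Ppargc1a -5.51 and -5.43 in the epithelial cells. With a single pool at each age and treatment, the differences between the ages were not tested. The aged mice of the study were in general heavier than the young ones, so the cap on tidal volume may have lowered their volume per kg more. Such a difference cannot be told apart from age here. A gene is compared only where it is abundant enough at that age, so lists are set side by side over the members compared at both ages. Of 20 such interferon-induced genes in the endothelial cells, none rose in the aged and 13 in the young lungs, with medians of 0.17 and 1.53. Of 5 such cytokine and chemokine genes in the mesenchymal cells, none rose in the aged and 4 in the young lungs, where 1 fell, with medians of -0.25 and 1.64. The nonventilated levels differed here as well. Summed over all members, this list was at 962 and 917 CPM in the aged and 386 and 1959 CPM in the young mesenchymal cells. The endothelial interferon-induced list began more alike, at 5324 and 5593 CPM in the aged and 5139 and 15811 CPM in the young lungs. The rises shared by the ages took in Mt1 and Mt2 (endothelial Mt2 at 5.36 and 6.54), the NRF2 genes (epithelial medians of 0.95 and 1.24) and the EGFR and injury genes (1.72 and 2.26). For Fkbp5 the mesenchymal log2 ratios were 1.68 in the aged and 0.41 in the young lungs.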

How the data were processed

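Lung cells were profiled in 4 libraries of 3 pooled mice, of which the 2 aged ones are compared. The authors aligned reads to mm10 with Cell Ranger 7.0.0 and deposited the unnormalized UMI counts of 32285 genes for each barcode. The aged nonventilated library held 3901 barcodes and 45218176 UMIs, and the aged ventilated one 3400 and 40655452. No doublet caller was run. Cells with more than 1 of Ptprc, Cdh5 and Col1a2 (9.39% and 7.64% of kept cells) were left out, which removes part of the doublets. Epcam was not counted there, so doublets of an epithelial cell with another cell were not removed by this rule.

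Classes within a compartment were called from summed marker genes (at least 2 UMIs), and values within a class needed 15 cells. Mitochondrial genes and the 4 compartment genes were not compared. A ratio against 0 UMIs was bounded with a floor of 3 UMIs. Intervals were exact conditional binomial for ratios and Clopper-Pearson for shares (95%). Named genes were the 8 largest rises and 5 largest falls per compartment among genes seen in at least 10 cells of a library. Those called in all compartments and members of 21 gene lists were named too. A further list, of ribosomal protein genes, was given by counts and medians only. The compartments, members and lists were chosen with earlier results of these data known. Not all genes that this rule names are reported here, and genes reported that it does not name were chosen after their values were seen. Promoters came from RefSeq (GRCm38.p6) and gene positions from GENCODE vM21 (GRCm38), the build of mm10. The call rule was run on simulated counts with planted 3-fold and 4-fold changes. These counts had counting error only, with no spread between cells or animals, so the run checked no more than the working of the rule. Python 3.11.15, numpy 2.4.6, scipy 1.17.1, pandas 2.3.3 and matplotlib 3.10.9 were used. Alternatives varied the cell filter, the mitochondrial limit, the marker UMIs required, scaling, weighting of cells, depth per cell, class shares and gene filter, and an added one left out the 5 highest cells per gene.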

Additional observations from a re-analysis of the deposited data

Results flagged for a closer look

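Several values of the aged lungs had the opposite sign in the young lungs, where each side was again a single pool, so the difference was not tested. Cxcl10 in mesenchymal cells was at a log2 ratio of -1.67 in the aged and 2.66 in the young lungs. Over the list members compared at both ages, the median log2 ratio in mesenchymal cells was -0.38 (aged) and 0.89 (young) for 5 interferon-induced genes, -0.25 and 1.64 for 5 cytokine and chemokine genes, and -0.038 and 1.38 for 13 NF-kB feedback genes. In epithelial cells the median of 6 NF-kB feedback genes was -0.13 in the aged and 0.86 in the young lungs. Part of such a difference can lie in the nonventilated libraries. The summed CPM of all mesenchymal NF-kB feedback genes was 3707 and 3265 in the aged (nonventilated and ventilated) and 2291 and 5346 in the young lungs. For the mesenchymal interferon-induced genes it was 2781 and 3041 in the aged and 2257 and 4339 in the young lungs. Igha in immune cells was at -4.85 and 5.08, with 77.7% of the aged nonventilated UMIs in a single cell. Scgb1a1 in endothelial cells was at 3.21 and -4.83, with 94.5% of the aged ventilated UMIs in a single cell.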

How the results depend on the processing

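With 1 pool a side, no library could be left out, and no paired analysis was possible because each group has a single library. Of 204 calls of named genes, 108 were still called under all 8 alternatives applied to them (28 of 44 immune, 36 of 46 endothelial, 34 of 50 mesenchymal and 10 of 64 epithelial). A gene left below the gene filter counts as lost, even if its ratio stayed past 2-fold. Under most alternatives, so does a gene with an interval that held 1. Immune Ccl7, at log2 ratios of 2.07 to 3.23 over all settings, was called under only 4 of the 8. Under the cell filter of the study 152 were still called, with per-cell mean CPM 172, with cells thinned to 1000 UMIs 149 and without the 5 highest cells 184. The counts of genes depended on the gene filter. With a minimum of 10 CPM the rises and falls were 259 and 259 (immune), 307 and 667 (endothelial), 323 and 589 (mesenchymal) and 562 and 578 (epithelial), and with no minimum 622 and 919, 517 and 1707, 500 and 1502, and 669 and 709. The 134 immune rises and 102 falls were 205 and 161 under the cell filter of the study, 206 and 155 with per-cell means and 220 and 185 with thinned cells, and the falls 59 with class shares fixed. Thinned epithelial cells gave 65 and 68, among 836 genes. Under the cell filter of the study the endothelial shares were 36.1% and 34.0%, the mesenchymal 19.6% and 16.3% and the epithelial 2.41% and 2.00% (nonventilated and ventilated). With a 5% mitochondrial limit the immune shares were 45.9% and 54.8%, the endothelial 25.9% and 22.9%, the mesenchymal 25.5% and 19.8% and the epithelial 2.69% and 2.56%. With 2 marker UMIs required, the ventilated immune share was 50.7% and the epithelial 3.01%. Signs changed for the immune immediate early median (0.0022 when thinned) and the ribosomal medians (immune -0.17 under the cell filter of the study, -0.12 per cell and -0.14 thinned, and epithelial -0.11 under that filter). Among single genes, that filter gave 1.61 for epithelial Mt1, -0.081 for Areg, 2.30 for Scgb3a2 and -0.91 for endothelial Scgb1a1. The 5% limit gave -0.69 for endothelial Scgb1a1, 4.68 for endothelial Sftpa1 and -0.41 for epithelial Tgfb2. Without the 5 highest cells these were -0.64, 0.083 and -0.92, and Scgb3a2 0.70. With 2 marker UMIs, immune Scgb1a1 was 0.55 and Cyp2f2 1.31, and thinning gave -0.013 for epithelial Fosl1. The cause of these changes was not tested.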

Other observations

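The aged lungs also held cells outside the compartments. Cells with none of the 4 compartment genes numbered 241 in the nonventilated and 217 in the ventilated library, with medians of 1786 and 1706 UMIs, and were not analysed further.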
